A study of Mus musculus with 6 samples.

Results

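Group 2 innate lymphoid cells (ILC2) formed 222 of the 61839 cells in a single-cell RNA sequencing study of the developing mouse lung. The cells were taken by the cell type that the authors assigned to each cell, which corresponds to a single cluster of lymphocytes. Lungs came from 36 C57BL/6 mice at postnatal day 3, 7 or 14 (P3, P7, P14), with 6 mice in each of the 6 combinations of age and oxygen. Pups breathed room air with 21% O2 (normoxia) or 85% O2 (hyperoxia) from the day of birth until harvest, which impairs the formation of alveoli and serves as a model of bronchopulmonary dysplasia. All lungs were perfused with heparin and digested with the same enzymes, no cell type was sorted, and all mice were untreated apart from oxygen. Cells of each mouse were tagged with a lipid-linked sample barcode (MULTI-seq) and pooled, and an age was always represented in a pool by 3 mice of normoxia and 3 of hyperoxia.

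ILC2 are lymphocytes of mucosal tissues that lack a rearranged antigen receptor and depend on the transcription factor GATA3. They respond to the alarmins IL-33, TSLP and IL-25 that epithelial and stromal cells release, and to IL-7 and IL-2, by secreting IL-5, IL-13, GM-CSF and the epidermal growth factor family member amphiregulin. In the lung, ILC2 expand after birth during alveolar development, when IL-33 rises, and they act on eosinophils, macrophages and epithelial repair.

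At P3, 14 normoxic and 11 hyperoxic ILC2 were found. At P7 there were 42 and 42, and at P14 there were 53 and 60. A mouse contributed between 0 and 19 ILC2, and 1 mouse contributed none. Expression was therefore compared over the 20 mice with at least 5 ILC2, which were 4 normoxic and 4 hyperoxic mice at P7 and 6 and 6 at P14, with 192 cells. The counts of unique molecular identifiers (UMIs), each of which stands for an RNA molecule, were summed over the ILC2 of a mouse and are given as counts per 1e6 UMIs of these cells (CPM). The sums of the fitted mice lay between 17515 and 147081 UMIs, with a median of 29082.5 UMIs in the normoxic and 49077 in the hyperoxic mice of P14. No P3 mouse entered a test of expression, and values at P3 are given only as a description. All P14 mice were in pools that held no other age, so that age and pool cannot be told apart where P14 is compared with younger mice.

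The results below turn on genes of the cell cycle, on Il1rl1, which encodes the receptor of IL-33, and on the cytokine genes Il5 and Il13. The 150 bases before the start of these genes are shown to set side by side the promoters of genes that changed with hyperoxia and of cytokine genes that did not pass the test. They are RefSeq sequences of GRCm38.p6, written 5′ to 3′ on the strand of the gene. In the 4 cell cycle genes, capitals mark the letters CCAAT, and TTTGAA or TTTAAA, on either strand. CCAAT is the core of the site bound by NF-Y, and the other letters are the core of the cell cycle genes homology region that the DREAM and MuvB complexes bind.
Top2a, chr11:99024190-99024339, minus strand: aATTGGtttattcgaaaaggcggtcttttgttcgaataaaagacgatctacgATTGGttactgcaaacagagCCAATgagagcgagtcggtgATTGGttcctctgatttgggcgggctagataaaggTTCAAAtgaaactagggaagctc
Ube2c, chr2:164769779-164769928, plus strand: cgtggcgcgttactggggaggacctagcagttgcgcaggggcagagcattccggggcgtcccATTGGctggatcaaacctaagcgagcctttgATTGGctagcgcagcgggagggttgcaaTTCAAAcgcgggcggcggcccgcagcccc
Mki67, chr7:135716380-135716529, minus strand: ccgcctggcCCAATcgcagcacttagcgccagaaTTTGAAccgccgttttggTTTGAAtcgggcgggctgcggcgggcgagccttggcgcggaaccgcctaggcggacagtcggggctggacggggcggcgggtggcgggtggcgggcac
Birc5, chr11:117849087-117849236, plus strand: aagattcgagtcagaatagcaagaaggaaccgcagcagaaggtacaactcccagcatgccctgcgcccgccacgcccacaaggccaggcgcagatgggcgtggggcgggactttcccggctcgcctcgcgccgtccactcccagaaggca
In the genes of ILC2 identity, capitals mark AGATAA or TGATAA on either strand, which are forms of the core letters to which GATA factors bind. Il1rl1 has 2 listed start sites.
Il13, chr11:53634703-53634852, minus strand: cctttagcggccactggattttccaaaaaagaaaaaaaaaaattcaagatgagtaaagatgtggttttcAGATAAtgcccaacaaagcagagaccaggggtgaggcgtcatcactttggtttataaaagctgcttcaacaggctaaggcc
Il5, chr11:53720644-53720793, plus strand: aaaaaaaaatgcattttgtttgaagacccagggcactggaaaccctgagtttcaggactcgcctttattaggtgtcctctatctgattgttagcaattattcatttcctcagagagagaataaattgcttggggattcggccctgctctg
Il1rl1 start 1, chr1:40429420-40429569, plus strand: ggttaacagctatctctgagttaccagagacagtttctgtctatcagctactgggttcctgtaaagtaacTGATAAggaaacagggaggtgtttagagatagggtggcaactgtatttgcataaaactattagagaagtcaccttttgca
Il1rl1 start 2, chr1:40439479-40439628, plus strand: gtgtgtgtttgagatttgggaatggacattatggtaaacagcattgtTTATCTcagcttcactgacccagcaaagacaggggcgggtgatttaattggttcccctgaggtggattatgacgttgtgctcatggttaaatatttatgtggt

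CCAAT occurred 4 times before Top2a, 2 times before Ube2c and once before Mki67, and it was not among the letters before Birc5. TTTGAA or TTTAAA occurred 1, 1 and 2 times before Top2a, Ube2c and Mki67 and 0 times before Birc5. In small letters, TTTGAA or TTTAAA also occurred once before Il5, and CCAAT once before the second start of Il1rl1. Of the promoters read but not shown, Hmgb2, Pclaf and Cks2 each had CCAAT 2 times, Tubb5 once and Tuba1b 0 times. Among these, only Hmgb2 had TTTGAA or TTTAAA, once. Of 32851 promoters of this length, 24.5% held CCAAT, 14.7% held TTTGAA or TTTAAA, and 3.60% held both. AGATAA or TGATAA occurred once before Il13 and once before each start of Il1rl1, was not among the letters before Il5, and was held by 9.65% of all promoters. Top2a also holds it once, in small letters. AGATAG, another form of these core letters, was not searched. On either strand, AGATAG stands in small letters before Il5 and before the first start of Il1rl1. These matches describe the letters of the windows and are not measured binding sites.

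The label was checked against its markers. Gata3 was detected, with at least 1 UMI, in 89.2% of the ILC2, Il1rl1 in 77.9%, Areg, which encodes amphiregulin, in 76.1% and Il13 in 35.6%. All 4 were detected in 52 cells, 3 of them in 99, 2 in 48, 1 in 18 and none in 5. Rora, a transcription factor that ILC2 require, was detected in 97.7% of the cells, and Arg1, the arginase of ILC2 and macrophages, in 77.5%. Ptgdr2, the prostaglandin D2 receptor often used to sort ILC2, had a UMI in 0 of the 222 cells, and Nmur1, the neuromedin U receptor, in 2.25%. Klrg1, which marks a mature and activated state, was detected in 22.5% and Il17rb, a subunit of the IL-25 receptor, in 16.7%.

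Genes of other lymphocytes were mostly low. Foxp3, Cd8a, Ncr1, Eomes and Mcpt8, which define regulatory T (Treg), CD8+ T, natural killer (NK) cells and basophils, had a UMI in no ILC2. Cd3d and Cd3e, subunits of the T cell receptor complex, were detected in 2.25% and 3.60%, and the receptor constant region Trac in 5.41%. Cd3g and Trbc2 were detected in 54.1% and 77.0%, and Cd3g also in 51.6% of NK cells. RNA of secretory and alveolar epithelium was found in nearly every cell, with Scgb1a1 in 96.4% and Sftpc in 92.8% of ILC2, and in 90.5% and 88.9% of B cells, which do not express them, at a median depth of 4700.0 and 2181 UMIs per cell. These genes are therefore background here.

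Several genes with a far higher level in ILC2 than in any other type encode cytokines. The mean over the 20 mice is compared, without a test since these genes define the cluster, with the type of the next highest level. Il5, the growth factor gene of eosinophils, reached 237 ± 249 CPM (SD, n = 20) against 1.12 CPM in Treg cells, a ratio of 213. Calca, which encodes the neuropeptide CGRP, reached 325 ± 202 CPM, 18.7 times the level in mesothelial cells, and Csf2, the GM-CSF gene, reached 1574 ± 1307 CPM against 137 in mast cells and basophils. Lif, a cytokine of the IL-6 family, reached 422 ± 364 CPM, with 36.9 CPM in γδ T cells.

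Areg reached 2266 ± 1442 CPM, with ciliated cells next at 278 CPM, and Arg1 reached 451 ± 180 CPM, with γδ T cells next at 91.9. Gata3 reached 903 ± 247 CPM against 193 in Treg cells, and Il1rl1 541 ± 270 CPM against 216 in mast cells and basophils. Il2, Hilpda, a regulator of lipid droplets, and the chemokine gene Ccl1 were also highest in ILC2, with 517, 2126 and 718 CPM. Of 656 genes with at least 200 CPM in ILC2, 15 were at least 2 times as high as in any other type.

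Il13 did not follow this order. Its level of 376 ± 298 CPM in ILC2 was below the 983 CPM of mast cells and basophils, of which 57.3% had a UMI. Il4, another cytokine gene of this locus, reached 50.0 CPM in ILC2 and 1423 CPM in mast cells and basophils. Il5 (chr11:53720794-53725106) and Il13 (chr11:53631324-53634702) lie near each other on opposite strands, without being adjacent. Il5 was detected in 78 ILC2, Il13 in 79 and both in 39. Of the cells with Il5, 50% had Il13, against 27.8% of the others, and the cells with Il5 were deeper, with a median of 6273.5 against 4309 UMIs.

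**Figure D1:**
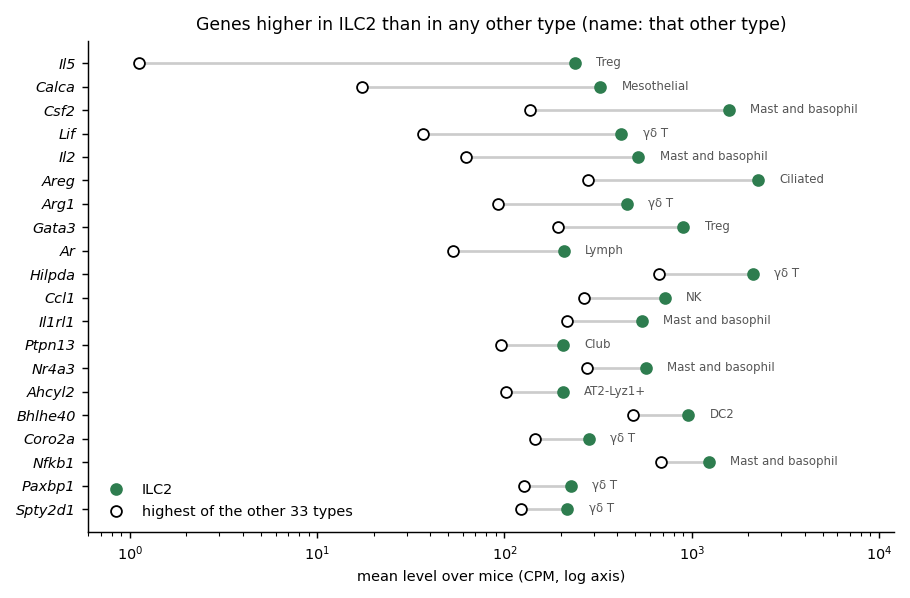
Levels of the genes that set ILC2 apart, with mean counts per 1e6 UMIs over mice on a logarithmic horizontal axis, for ILC2 and for the other cell type with the highest level, 1 gene per line. Il5 shows the widest gap, 237 CPM in ILC2 against 1.12 CPM in Treg cells.

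Ligands of ILC2 came from several compartments. Il33 was highest in Lyz1+ alveolar type 2 (AT2-Lyz1+) cells at 210 CPM, in other AT2 cells at 185 CPM and in mesothelial cells at 117 CPM. Tslp was highest in pericytes, with 125 and 62.5 CPM in the pericyte 2 and pericyte 1 types, and Il7 in lymphatic endothelium with 55.1 CPM. Il25 did not exceed 0.138 CPM in any type. Il18, another alarmin of ILC2, was highest in alveolar macrophages at 440.0 CPM, and Tgfb1, which restrains or shapes ILC2, in monocytes at 315 CPM.

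Receptors for products of ILC2 were spread over other cells. Csf2rb and Csf2ra, the chains of the GM-CSF receptor, were highest in mast cells and basophils (828 CPM) and in monocytes (146 CPM). Egfr, the receptor of amphiregulin, was highest in AT1 cells at 52.2 CPM, Lifr, the receptor of LIF, in vein endothelium at 164 CPM, and Calcrl, a part of the CGRP receptor, also in vein endothelium at 1356 CPM. Il9r and Ccr8, the receptors of IL-9 and CCL1, were highest in ILC2, with 67.3 and 24.4 CPM.

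ILC2 were rare at every age, and their percentage of all cells of a mouse did not pass the test of hyperoxia at any age. At P3 the percentage was 0.146 ± 0.0557 in normoxia and 0.113 ± 0.0673 in hyperoxia (SD, n = 6 each), a difference of -0.0327 percentage points (adjusted p = 0.652, two-sided exact permutation test over mice, adjusted over 34 types and 3 ages). At P7 it was 0.434 ± 0.349 and 0.512 ± 0.337, a difference of 0.0775 points (adjusted p = 0.878, exact permutation test). As a percentage of lymphoid cells the difference at P7 was -0.683 points, so that its sign depended on the denominator. Mice of an age and oxygen level overlapped widely.

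At P14 the lowest, median and highest percentages were 0.281, 0.357 and 0.605 in normoxia and 0.461, 0.566 and 0.938 in hyperoxia. The means were 0.413 ± 0.144 and 0.654 ± 0.226, and the difference of 0.240 points had an exact permutation p of 0.0584 and an adjusted p of 0.175. The groups overlapped, and the difference was 0.367 and 0.114 points within the 2 pools. As a percentage of lymphoid cells, ILC2 were at 2.46 ± 0.816 in normoxia and 6.32 ± 2.68 in hyperoxia, with an exact permutation p of 0.00866 that became 0.0779 after adjustment and therefore did not pass. As a percentage of lymphoid and myeloid cells they were at 1.33 ± 0.430 and 1.98 ± 0.610 (adjusted p = 0.214, exact permutation test), and of lymphoid cells other than B and CD4+ T cells at 9.45 ± 2.87 and 13.97 ± 4.65 (adjusted p = 0.242, exact permutation test). The denominator differed as well, since B cells were 7.20% of all cells in normoxia and 3.29% in hyperoxia and CD4+ T cells 5.65% and 2.72%, and a P14 mouse had 238 to 609 lymphoid cells in normoxia and 148 to 175 in hyperoxia. NK cells went from 0.392% to 1.19% and Treg cells from 0.925% to 0.990%.

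With age in normoxia, the percentage of ILC2 was higher at P14 than at P3 by 0.267 points (exact permutation p = 0.00216, the smallest that 6 against 6 mice allow, adjusted p = 0.0170). P7 was 0.288 points above P3 (exact permutation, adjusted p = 0.192), and P14 did not differ from P7 beyond the spread of the mice (adjusted p = 0.910, exact permutation). In the pool that held both P3 and P7, the normoxic means were 0.170% at P3 and 0.241% at P7. In the pools of a single age they were 0.122% at P3 and 0.627% at P7. As a percentage of lymphoid cells the difference between P14 and P3 was -0.799 points. The effect of hyperoxia at P14 exceeded that at P3 by 0.273 points (permutation p = 0.0319, adjusted p = 0.114).

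**Figure D2:**
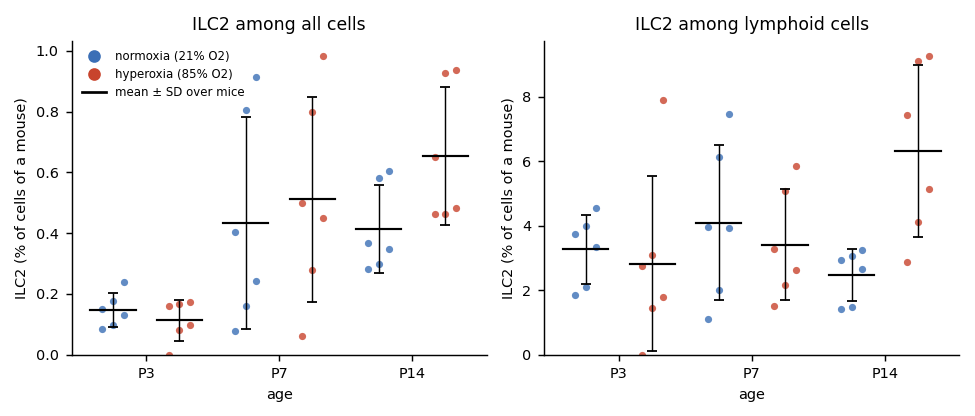
ILC2 as a percentage of all cells (left) and of lymphoid cells (right) in each mouse, by age and oxygen, with points for mice and bars for the mean and its SD. At P14 the hyperoxic mice lie between 0.461% and 0.938% of all cells and the normoxic mice between 0.281% and 0.605%.

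ILC2 of hyperoxic mice held more RNA molecules at P14. The median number of UMIs per ILC2 of a mouse was 2934 ± 329 in normoxia and 4813 ± 740 in hyperoxia, and this difference of 1879 UMIs was larger than the spread of the mice (adjusted p = 0.00409, exact permutation test, adjusted over 34 types). Of the 34 types, 29 were higher in hyperoxia and 24 of these passed the test, among them NK cells with 2401 and 4235 UMIs, so that the difference was not particular to ILC2. Treg cells, with 3194 and 4873 UMIs, did not pass (adjusted p = 0.0559, exact permutation test). The results for named genes were therefore also computed after every mouse was thinned to the same number of UMIs. Whether depth had a part in a result was not tested beyond this.

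The oxygen levels were then compared for each gene at P14. Of 748 genes tested, 44 rose and 52 fell in hyperoxia (edgeR quasi-likelihood test, adjusted p below 0.05 over all genes tested), which is 12.8% of the genes, with 5.88% higher and 6.95% lower. The genes that rose held the growth factor genes Areg and Lif, the protease gene Furin and genes of mitosis, and those that fell held Il1rl1, Arg1, the chemokine receptor gene Ccr2 and many ribosomal protein genes. Every hyperoxic mouse was above every normoxic mouse for 21 genes, 2.81% of those tested, of which 17 passed the test. Every hyperoxic mouse was below for 17 genes, 2.27%, and all 17 passed. Without hyperoxic mouse 3, 62 genes were called in place of 96, and with no filter on low counts 123 genes rose and 9 fell.

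The secreted effectors are described first. Of the 25 genes on this list, 12 passed the filter on low counts, 4 rose, 1 fell and 7 did not pass the test, where 5.88% of all genes tested rose and 6.95% fell. Their median log2 fold change was 0.99, against 0.05 over all genes tested. The members of this list were chosen with earlier results of these data known. Nothing about the list is therefore read from this count or median, and the genes are given one by one.

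Areg (chr5:91139599-91148432) had 271, 679.8 and 1278 CPM as the lowest, median and highest value in the 6 normoxic mice of P14 and 1866, 2805 and 5359 CPM in the 6 hyperoxic mice. The groups did not overlap. Areg rose by 2.10 ± 0.35 (SE) on the log2 scale, with an adjusted p of 0.000444, and within the 2 pools the log2 ratio of the means was 1.89 and 2.25. The change passed the test under all 31 alternative settings.

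Lif (chr11:4257557-4272514), whose product maintains stem cells and limits inflammation in the lung, had 85.2, 199 and 409 CPM in normoxia and 658, 898 and 1217 CPM in hyperoxia. Every hyperoxic mouse was again above every normoxic mouse. Lif rose by 1.85 ± 0.38 on the log2 scale (adjusted p = 0.00245) and passed under all 31 alternatives.

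Furin (chr7:80388585-80405436), a protease that cleaves the precursors of growth factors such as TGF-β, had 432, 555 and 881 CPM in normoxia and 689.5, 1363 and 1784 CPM in hyperoxia, with a small overlap of the groups. Its log2 fold change was 1.08 ± 0.22 (adjusted p = 0.00229) and it passed under all 31 alternatives. Cxcl2, a chemokine gene for neutrophils, had 57.1, 346 and 2049 CPM in normoxia and 1059, 2389 and 3853 CPM in hyperoxia. The log2 fold change of Cxcl2 was 1.64 ± 0.49 (adjusted p = 0.0285), the ratio of the means in the pools was 1.09 and 3.26 on the log2 scale, and the call was lost when any of 5 single mice was left out, with adjusted p up to 0.0726, these being normoxic mice 3, 4 and 6 and hyperoxic mice 2 and 4.

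Arg1 (chr10:24915221-24927484), which sustains glycolysis and proliferation of activated ILC2, went the other way. It had 417, 600.3 and 755 CPM in normoxia and 149.7, 295 and 394 CPM in hyperoxia, and the groups did not overlap. Arg1 fell by 1.03 ± 0.28 on the log2 scale (adjusted p = 0.0181). The call was lost after thinning to equal UMIs (log2 fold change -0.72, adjusted p = 0.162), without cells with a UMI of Mki67 or Top2a (-1.05, adjusted p = 0.0946) and without normoxic mouse 4 (adjusted p = 0.0576).

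The type 2 cytokine genes did not pass the test. Il13 had 0, 101 and 566 CPM in normoxia and 0, 331 and 502 CPM in hyperoxia, a log2 fold change of 0.36 ± 0.71 (adjusted p = 0.803). Il5 had 0, 78.0 and 685 CPM and 81.1, 238 and 948 CPM, a log2 fold change of 1.12 ± 0.70 (adjusted p = 0.311). Il5 passed in mice with at least 8 ILC2 (log2 fold change 2.98, adjusted p = 0.0402) and with no filter on low counts (1.43, adjusted p = 0.0183). Both genes spanned nearly the whole range within each group, and the standard errors leave room for changes of more than 2-fold.

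Csf2 and Calca were similar in this respect. Csf2 had a log2 fold change of 0.24 ± 0.62 (adjusted p = 0.860), with 265 to 3931 CPM in normoxia and 353 to 3503 CPM in hyperoxia. For Calca it was -0.15 ± 0.55 (adjusted p = 0.903), with 37.9 to 685 CPM and 40.7 to 482 CPM. Mice of the same group lay far apart in both genes.

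**Figure D3:**
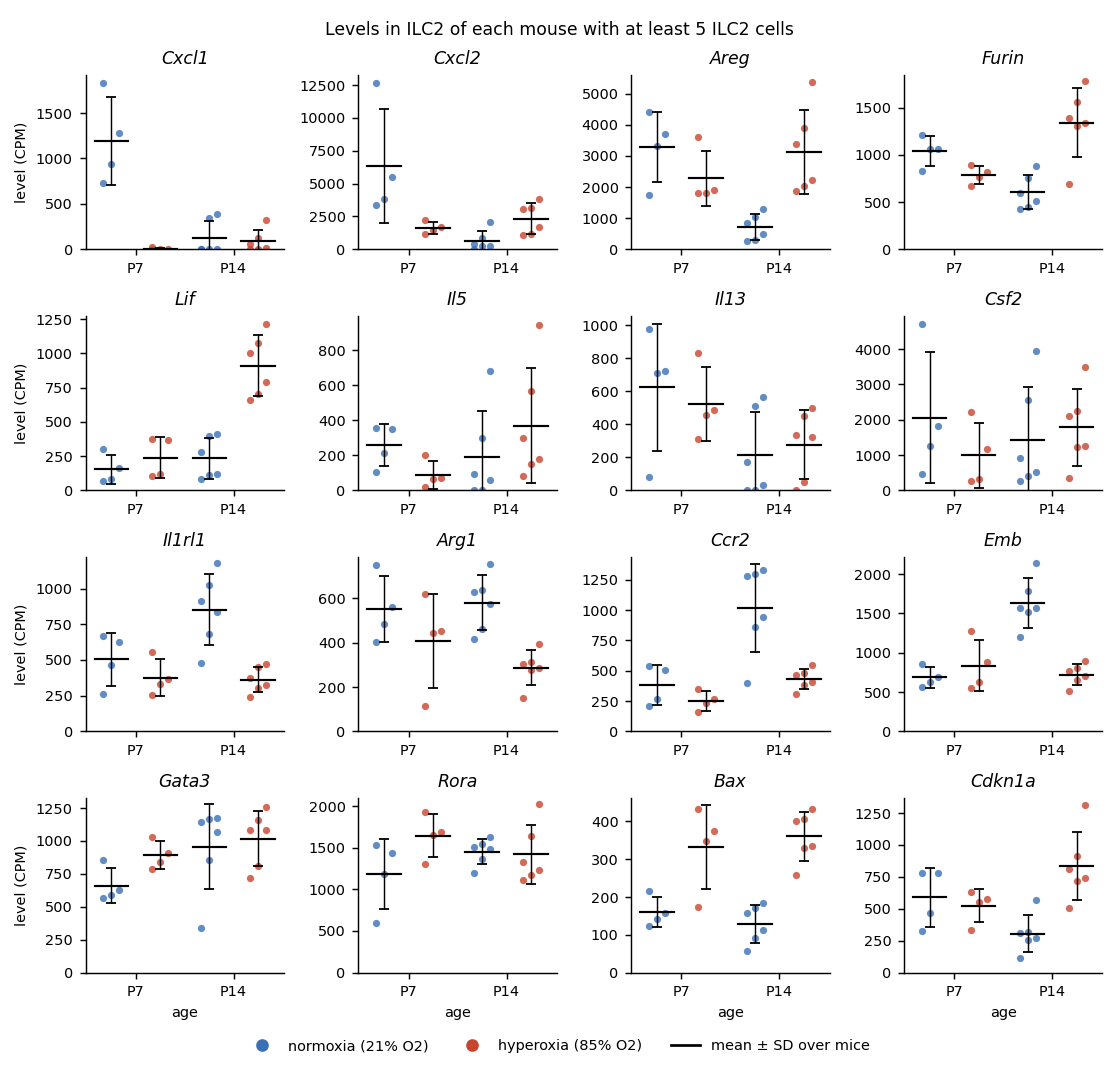
Levels of genes of ILC2 in each of the 20 mice, in counts per 1e6 UMIs of the ILC2 of a mouse on linear axes that start at 0, by age and oxygen, with points for mice and bars for the mean of a group and its SD. At P14 the hyperoxic mice lie above all normoxic mice for Areg and Lif and below them for Il1rl1 and Arg1.

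Among the receptors for alarmins and cytokines, 22 were listed and 8 tested, of which 1 rose and 1 fell, with a median log2 fold change of 0.09, where 5.88% of all genes tested rose and 6.95% fell. Il1rl1 (chr1:40429570-40465415) had 482, 872 and 1176 CPM in the normoxic mice of P14 and 243, 349 and 474 CPM in the hyperoxic mice. The groups were close but did not overlap. The log2 fold change was -1.29 ± 0.25 (adjusted p = 0.00196), and the log2 ratio in the pools was -1.38 and -1.08. The decrease passed in 29 of 31 alternatives, and when cells with a UMI of Mki67 or Top2a were left out it was -0.85 with an adjusted p of 0.211.

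Tnfrsf18, which encodes the costimulatory receptor GITR, rose by 1.28 ± 0.37 on the log2 scale (adjusted p = 0.0249), from 123, 219 and 346 CPM to 203, 554 and 919.8 CPM. This call was lost without any of 4 single mice, which were normoxic mice 1, 3 and 6 and hyperoxic mouse 5, with adjusted p up to 0.0702. Il7r, a chain of the IL-7 and TSLP receptors, had a log2 fold change of -0.59 ± 0.29 (adjusted p = 0.192), and Il2ra, the high-affinity chain of the IL-2 receptor, of 0.39 (adjusted p = 0.530). Icos and Kit had log2 fold changes of 0.14 and 0.02. Il17rb and Il18r1 were below the filter on counts, as were Klrg1 and Ptgdr2.

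Of the receptors for lipids, neuropeptides and hormones, 5 of 20 were tested and none was called. The list of IL-2, IL-7 and STAT5 feedback genes gave 0 calls among 5 tested genes. With 12.8% of all genes called, nothing is read from 0 of 5.

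The transcription factors of ILC2 gave 1 call. Of 20 listed, 9 were tested, none rose and 1 fell, beside 12.8% of all genes called, with a median of -0.11. Gata3 had 341, 1103 and 1175 CPM in normoxia and 719, 1084 and 1257 CPM in hyperoxia, a log2 fold change of -0.01 ± 0.22 (adjusted p = 0.998), and Rora had a log2 fold change of -0.14 (adjusted p = 0.697). Ets1, which supports the expansion of ILC2, fell by 0.86 ± 0.23 on the log2 scale (adjusted p = 0.0150), from a median of 964 to 514 CPM. The decrease of Ets1 was -0.78 after thinning (adjusted p = 0.0541) and -0.89 without cells with Mki67 or Top2a (adjusted p = 0.0946).

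Surface and migration genes numbered 29, with 13 tested, 2 higher and 1 lower (5.88% and 6.95% over all genes tested). Ccr2 (chr9:124101950-124113557), which guides cells along CCL2, had 399.7, 1111 and 1327 CPM in normoxia and 307, 437 and 546 CPM in hyperoxia, with 1 normoxic mouse inside the hyperoxic range. It fell by 1.32 ± 0.26 on the log2 scale (adjusted p = 0.00204), and without cells with Mki67 or Top2a the log2 fold change was -1.13 (adjusted p = 0.0943). S100a4 and Vim, a calcium-binding protein and an intermediate filament of motile cells, rose by 0.77 (adjusted p = 0.0329) and 0.78 (adjusted p = 0.0372) on the log2 scale, and both calls were lost without single mice, 6 for S100a4 (normoxic mice 1, 3 and 4, hyperoxic mice 2, 5 and 6) and 7 for Vim (normoxic mice 3, 4 and 5, hyperoxic mice 2, 3, 4 and 6). Cxcr6 had a log2 fold change of -0.18.

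Emb (chr13:117208536-117274415), which encodes the adhesion and transporter partner embigin, is named for its difference between the ages, given below. It had 1199, 1572 and 2139.5 CPM in normoxia and 509, 737 and 892 CPM in hyperoxia, without overlap. Emb fell by 1.25 ± 0.21 on the log2 scale (adjusted p = 0.000444). Stab2, Arhgef6, Ttc14 and Cnot6l were, with Ccr2 and Il1rl1, the 6 largest decreases at P14 under the naming rule, with log2 fold changes of -2.66, -1.83, -1.31 and -1.26, of which Arhgef6 lost its call without any of 4 single mice (normoxic mice 1, 5 and 6 and hyperoxic mouse 3, adjusted p up to 0.0853) and Ttc14 without normoxic mouse 1 or hyperoxic mouse 3 (adjusted p up to 0.0847). Stab2 had 60.3, 232 and 399.7 CPM in normoxia and 0, 22.8 and 72.1 CPM in hyperoxia.

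Genes of stress and signalling gave 1 or 2 calls per list, beside 5.88% of all genes tested that rose and 6.95% that fell. Of 16 genes of NF-κB and activation, 9 were tested and 2 rose, Traf1 by 1.06 ± 0.25 (adjusted p = 0.00702) and Nfkbia, the inhibitor that NF-κB itself induces, by 0.54 (adjusted p = 0.0441) on the log2 scale. The Nfkbia call was lost without any of 10 single mice. Of 29 immediate early and dissociation genes, 21 were tested and 2 rose, Ier5 by 1.22 and Klf4 by 1.35 on the log2 scale, and Ier5 lost its call without any of 14 single mice and Klf4 without any of 8. For Nfkbia these were P14 normoxic mice 1, 2, 4 and 6, P14 hyperoxic mice 2, 3, 4 and 5 and mouse 4 of each P7 group, with adjusted p up to 0.127. For Klf4 they were P14 normoxic mice 1, 2, 3, 4 and 6 and hyperoxic mice 1, 3 and 5, with adjusted p up to 0.0978. For Ier5 they were P14 normoxic mice 2, 3, 4, 5 and 6, hyperoxic mice 1, 2, 3, 5 and 6, P7 normoxic mice 1, 4 and 5 and P7 hyperoxic mouse 4, with adjusted p up to 0.108.

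Of 19 genes of NRF2 and oxidative stress, 7 were tested. Txn1, the thioredoxin gene, rose by 0.77 ± 0.22 on the log2 scale (adjusted p = 0.0207) and Sod1, the cytosolic superoxide dismutase gene, fell by 0.95 ± 0.26 (adjusted p = 0.0196), from 228, 359 and 482 CPM to 83.6, 193 and 305 CPM. The list as a whole therefore had 1 gene in each direction, where 5.88% of all genes tested rose and 6.95% fell. Both genes lost their call without normoxic mouse 2 (adjusted p = 0.0553 for Txn1 and 0.0608 for Sod1), and Txn1 also without normoxic mouse 3 (adjusted p = 0.0573).

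Of 17 p53 targets, 2 passed the filter on counts and both rose, where 5.88% of all genes tested rose. A gene that is low in normoxia can pass this filter through the hyperoxic mice, so nothing is read from this count. Bax, the pore-forming activator of apoptosis (chr7:45461697-45466898), had 57.1, 136 and 185 CPM in normoxia and 258, 368 and 432 CPM in hyperoxia, with no overlap and a log2 fold change of 1.35 ± 0.30 (adjusted p = 0.00410). Cdkn1a, an inhibitor of cyclin-dependent kinases, had 114, 289.8 and 569 CPM and 509, 778 and 1310.0 CPM, with a log2 fold change of 1.33 ± 0.31 (adjusted p = 0.00592). Without cells with Mki67 or Top2a the Cdkn1a change was 0.94 (adjusted p = 0.106).

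Hilpda rose by 0.74 ± 0.20 on the log2 scale (adjusted p = 0.0167), from 724, 1085 and 1313 CPM to 1317, 2030.3 and 2344 CPM, and was the only call among 7 tested hypoxia and glycolysis genes. Psmb8, an interferon-induced subunit of the proteasome, rose by 0.83 (adjusted p = 0.0155), the only call among 4 tested interferon response genes. Uqcrh, a subunit of complex III of the respiratory chain, fell by 0.62 (adjusted p = 0.0144), the only call among 11 tested genes of oxidative phosphorylation, and this call was lost without normoxic mouse 1 (adjusted p = 0.0519). These single calls stand beside 5.88% of all genes tested that rose and 6.95% that fell, and nothing is read from them about the lists.

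Ribosomal protein genes were mostly lower. Of 75 tested, 34 fell and 1 rose, where 6.95% of all genes tested fell and 5.88% rose. A log2 fold change below 0 was found for 69 of them and for 334 of all 748 genes, with a median of -0.38 against 0.05 for all genes tested. With the size factors of DESeq2 the median was -0.38 with 37 lower calls, and without cells with Mki67 or Top2a it was -0.30 with 14 lower calls.

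**Figure D4:**
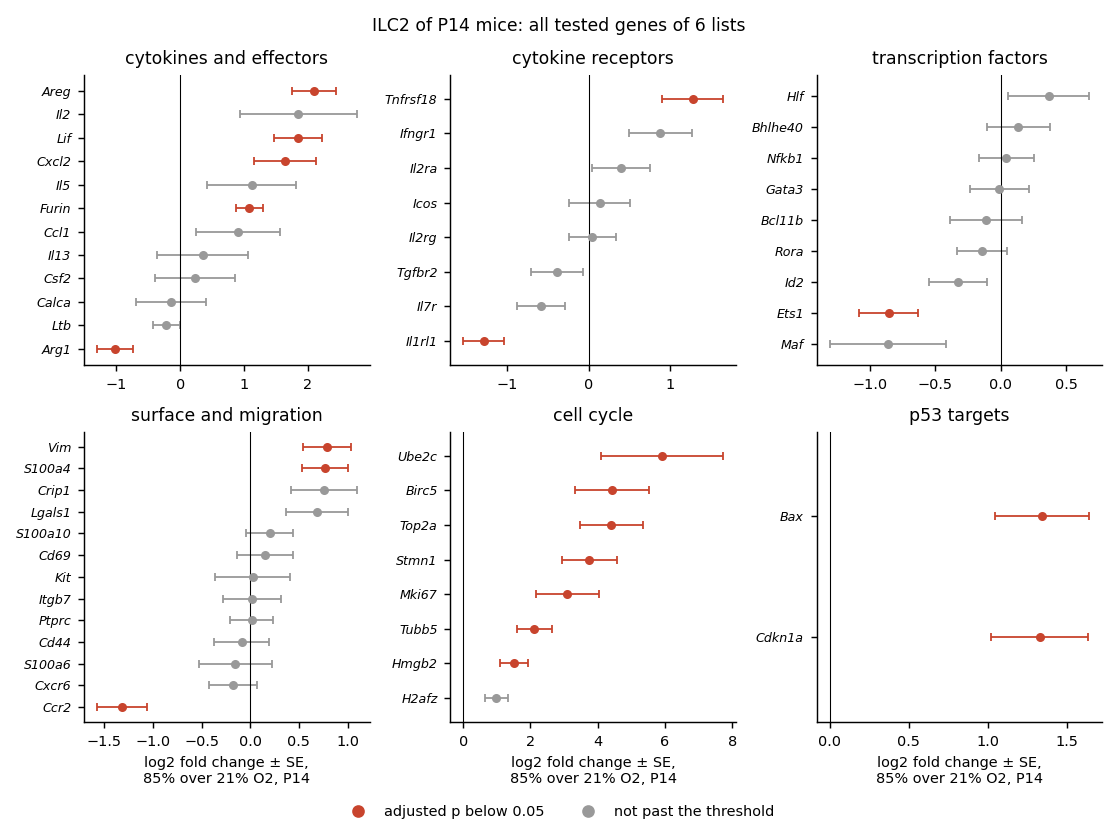
Log2 fold changes of hyperoxia against normoxia at P14 for the tested genes of 6 lists, 1 point per gene with a bar for its SE, and with genes that passed the test set apart by colour. Top2a lies at 4.41 and Il1rl1 at -1.29, and the 9 transcription factors lie around 0, with a median of -0.11.

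Genes of the cell cycle are given one by one. Of 17 genes on the list, 8 passed the filter on counts. The filter looks at all mice together, so that genes seen mostly in hyperoxic mice passed it through the groups where they were high, and their number and median are not read as a result about the list.

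Top2a, the topoisomerase of dividing cells, had 0, 0 and 42.6 CPM in the normoxic mice of P14 and 119.8, 228 and 739 CPM in the hyperoxic mice. The groups did not overlap. Summed over mice there were 2 UMIs of Top2a among 164772 in normoxia and 104 among 313137 in hyperoxia, a ratio of 27.4 with a 95% interval of 7.39 to 229 that covers counting error only, and the fitted log2 fold change was 4.41 ± 0.93 (adjusted p = 0.00301).

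Mki67, which encodes the proliferation antigen Ki-67, had 0, 40.3 and 62.9 CPM in normoxia and 0, 379.8 and 446 CPM in hyperoxia. A hyperoxic mouse without any UMI of Mki67 kept the groups overlapping. The log2 fold change was 3.10 ± 0.94 (adjusted p = 0.0312), and the call was lost without any of 6 single mice, normoxic mice 1, 2 and 3 and hyperoxic mice 2, 3 and 4, with adjusted p up to 0.0779.

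Stmn1, a regulator of microtubules, had 0, 40.3 and 114 CPM in normoxia and 59.9, 509 and 1189 CPM in hyperoxia, with a log2 fold change of 3.75 ± 0.82 (adjusted p = 0.00369). Birc5, the survivin gene, had 1 UMI in normoxia and 63 in hyperoxia, a ratio of 33.2 (95% interval 5.74 to 1330), and Pclaf, a partner of the replication clamp, had 1 and 83 UMIs, a ratio of 43.7 (7.63 to 1746). Ube2c, the ubiquitin-conjugating enzyme of the anaphase-promoting complex, had 0 UMIs in normoxia and 47 in hyperoxia, which makes it at least 8.24-fold higher against a floor of 3 UMIs over the group (18.2 CPM). Hmgb2 and Tubb5 rose by 1.51 (adjusted p = 0.0207) and 2.11 (adjusted p = 0.0104) on the log2 scale and Tuba1b by 3.34 ± 0.72.

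The calls of Top2a, Birc5, Stmn1 and Pclaf held without each single mouse. Those of Ube2c and Hmgb2 were lost without any of 7 and 4 single mice, with adjusted p up to 0.0917 and 0.0675. For Ube2c these were normoxic mice 1, 2, 3, 4 and 6 and hyperoxic mice 3 and 4, and for Hmgb2 normoxic mice 1 and 3 and hyperoxic mice 3 and 4.

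Cells with at least 1 UMI of Mki67 or Top2a were then counted, and they made up 71 of the 222 ILC2. At P14 they were 11.3% of the normoxic cells (95% exact binomial interval 4.27 to 23.0, for counting error only) and 45.0% of the hyperoxic cells (32.1 to 58.4). Per mouse with at least 5 ILC2, the lowest, median and highest percentages at P14 were 0, 15.6 and 28.6 in normoxia and 33.3, 42.9 and 60.0 in hyperoxia. No normoxic mouse reached the lowest hyperoxic mouse.

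At P7 the percentages over all cells were 23.8 (12.1 to 39.5) and 40.5 (25.6 to 56.7). The 4 mice per group with at least 5 ILC2 were between 11.1 and 33.3 in normoxia and between 37.5 and 50.0 in hyperoxia, and the other mice of P7, with 1 or 2 ILC2 each, were at 0 and 50% in normoxia and both at 0 in hyperoxia. At P3 5 of 14 and 6 of 11 cells qualified. After each cell was thinned to 1000 UMIs, the percentages were 1.89 and 20.0 at P14 and 7.14 and 19.0 at P7. After thinning the mice overlapped, from 0 to 14.3% in normoxia and from 7.14 to 40.0% in hyperoxia at P14 and from 0 to 16.7% and 0 to 40.0% at P7, so that the separation of the mice was not kept at equal depth.

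Stray RNA of these genes was looked for in ciliated cells, which do not divide. At P14, Top2a had a UMI in 14.7% of the normoxic and 20.0% of the hyperoxic ciliated cells, with a median of 9055 and 16503 UMIs per cell, and in 3.77% and 31.7% of ILC2 with 2840 and 4768.5 UMIs. Mki67 had a UMI in 7.69% and 10.8% of ciliated cells and in 7.55% and 30.0% of ILC2. The percentages in normoxic ILC2 of P14 did not exceed those in the deeper ciliated cells, and those in hyperoxic ILC2 did. At P7, Top2a was found in 17.9% and 23.9% of ciliated cells and in 11.9% and 31.0% of ILC2, and Mki67 in 10.3% and 17.9% of ciliated cells and in 19.0% and 33.3% of ILC2. The part of stray RNA in these percentages was not tested. The percentage of cells with Mki67 or Top2a and the levels of Il1rl1, Ccr2, Ets1 and ribosomal protein genes moved together between the groups, and the part of one in the other was not tested beyond the values without these cells.

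**Figure D5:**
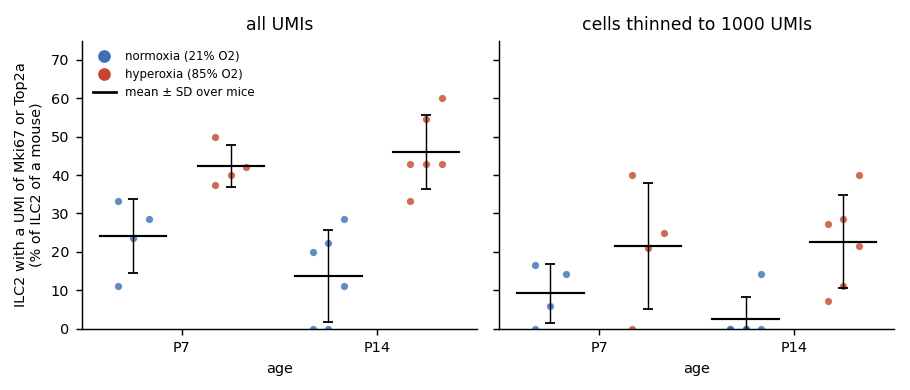
Percentage of the ILC2 of a mouse with at least 1 UMI of Mki67 or Top2a, by age and oxygen at P7 and P14, as counted and after thinning of each cell to 1000 UMIs. As counted at P14, the normoxic mice lie between 0 and 28.6% and the hyperoxic mice between 33.3 and 60.0%.

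RNA of other cell types in the ILC2 sums of P14 was examined beside these results. Of 12 T cell markers, 2 were at 0 in all mice, and their summed level was 628 to 1387 CPM in normoxia and 649 to 1467 CPM in hyperoxia. The 10 markers of NK cells and group 1 innate lymphoid cells summed to 0 CPM in every P14 mouse, and 8 of them were at 0 in all mice. The 6 B cell markers had medians of 80.5 and 61.8 CPM, with 1941 CPM in 1 normoxic mouse, and the 5 endothelial markers medians of 85.1 and 35.2 CPM, with 767 CPM in 1 normoxic mouse. The 6 epithelial markers had medians of 2200 and 1940 CPM. Without the 20 ILC2 that had a UMI of Cd3d, Cd3e, Cd79a or Ms4a1, 74 genes were called at P14 in place of 96. The part of endothelial RNA in the results was not tested.

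At P7 fewer genes passed the test. Of the same 748 genes, 1 fell and none rose (0.134%), whereas 59 had an unadjusted p below 0.05 and DESeq2 called 0. A lower number of mice, 4 and 4, entered here. The authors also state that the sexes were unequally distributed at P3 and P7. Sex was in no model used here, so its part at P7 and between ages was not tested. Every hyperoxic mouse was above every normoxic mouse for 18 genes (2.41%, of which 0 passed) and below for 22 genes (2.94%, of which 1 passed).

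The gene that fell was Cxcl1 (chr5:90891241-90893115), a chemokine gene for neutrophils. It had 725, 1829.5, 934 and 1285 CPM in the normoxic mice of P7 and 0, 0, 20.4 and 0 CPM in the hyperoxic mice. Every normoxic mouse was far above every hyperoxic mouse. There were 304 UMIs of Cxcl1 in normoxia and 3 in hyperoxia, a ratio of normoxia to hyperoxia of 115 with a 95% counting interval of 39.0 to 561, and the fitted log2 fold change was -6.63 ± 0.94 (adjusted p = 0.000205). It passed without each single mouse. Up to 4 genes were called without P7 normoxic mouse 3, 2 without P7 hyperoxic mouse 1 or 6 or P14 hyperoxic mouse 1 and 3 without P14 hyperoxic mouse 6. With DESeq2 its adjusted p was 0.0934.

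In normoxia at P7, ILC2 had the highest Cxcl1 level of 30 cell types, 1193 CPM, followed by interstitial macrophages with 481 CPM. Treg, NK and B cells had 0.734, 6.80 and 2.86 CPM. Cxcl1 was detected in 14 of 42 ILC2 (33.3%) against 1.96% of B cells, with a median depth of 6077.5 UMIs in the ILC2 and 3228.5 in the B cells of this group. In hyperoxia ILC2 had 5.10 CPM, rank 26 of 32 types. At P3 the order was different, with 0 UMIs in 14 normoxic ILC2 and 64 UMIs in 2 of 11 hyperoxic ILC2. At P14, 4 of 6 normoxic mice and 2 of 6 hyperoxic mice had no UMI of Cxcl1.

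Cxcl1, Cxcl2 and Areg lie within 257 kb on chromosome 5 (chr5:90891241-91148432). Cxcl2 had 12672, 5536, 3367 and 3828 CPM in normoxia at P7 and 1136, 1462, 2244 and 1663 CPM in hyperoxia. All hyperoxic mice were lower, and the log2 fold change of -1.94 did not pass (adjusted p = 0.119), but it did with a minimum count of 3 (adjusted p = 0.00977) and with no filter on low counts. Areg had 3302, 1758, 4424 and 3691 CPM and 1809, 1813, 3610.3 and 1901 CPM, with overlapping groups and a log2 fold change of -0.51 ± 0.36 (adjusted p = 0.731).

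No cell cycle gene passed the test at P7 as fitted here, although Ube2c and Birc5 passed under some alternatives. Ube2c had 0, 71.3, 106 and 13.7 CPM in normoxia and 441, 824, 422 and 760.4 CPM in hyperoxia, a log2 fold change of 3.37 (adjusted p = 0.0904, and 0.0216 and 0.0283 without P14 hyperoxic mouse 1 or 6). Birc5 had 26.8, 0, 141 and 54.7 CPM and 579.7, 247, 319.6 and 491 CPM, a log2 fold change of 2.47 (adjusted p = 0.119, and 0.0283 without P14 hyperoxic mouse 6). With a minimum count of 3 the adjusted p were 0.00384 for Ube2c and 0.0262 for Birc5, and both also passed with no filter on low counts. Neither gene overlapped between the groups, where 2.41% of all genes tested had every hyperoxic mouse of P7 above every normoxic mouse. Both genes were low in normoxia and can have passed the filter through the hyperoxic mice. Mki67 did overlap, with 80.5, 618, 79.3 and 13.7 CPM in normoxia and 649, 247, 367 and 507 CPM in hyperoxia.

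Il1rl1 and Il5 did not pass at P7. Il1rl1 had 671, 261, 626 and 465 CPM in normoxia and 255, 556, 333 and 364 CPM in hyperoxia (log2 fold change -0.44, adjusted p = 0.696). Il5 had 107, 214, 353 and 355 CPM and 69.6, 20.6, 204 and 63.4 CPM (log2 fold change -1.30, adjusted p = 0.679). The groups overlapped for both genes.

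Over P7 and P14 together, with age in the model, 27 genes rose and 44 fell among 637 tested (11.1%, with 4.24% higher and 6.91% lower). The balance of directions depended on the filter, since with no filter on low counts 123 genes rose and 10 fell. Ube2c had a log2 fold change of 3.60 ± 0.59, Top2a of 2.76 ± 0.50, Mki67 of 1.92 ± 0.53 and Bax of 1.23 ± 0.20, with adjusted p of 0.000897, 0.00230, 0.0174 and 0.000897. Of 74 ribosomal protein genes, 34 fell. Il1rl1 fell by 0.91 ± 0.21 (adjusted p = 0.00612), Ccr2 by 1.02 ± 0.22 (adjusted p = 0.00362) and Arg1 by 0.70 ± 0.22 (adjusted p = 0.0361) on the log2 scale, and Lif rose by 1.43 ± 0.31 (adjusted p = 0.00362). Stmn1, Pclaf, Tuba1b, Tubb5, Hmgb2, Traf1 and Psmb8 rose by 2.34, 2.17, 2.11, 1.49, 1.39, 0.78 and 0.63, and Cxcl1 and Sorl1 had log2 fold changes of -3.05 and -0.93. These 9 calls held without each of 20 single mice, except that Pclaf and Sorl1 passed the filter on counts in 19 and 12 of these fits. Those of B2m (0.51), Txn1 (0.56), Uqcrh (-0.42), Arhgef6 (-1.18) and Ppp1r15a (-0.84) were lost without any of 3, 3, 3, 1 and 10 single mice (Arhgef6 passed the filter in 12 of 20 fits), with adjusted p up to 0.0912. Arg1 lost its call without any of 7 single mice (P7 normoxic mouse 1, P14 normoxic mice 4 and 6 and P14 hyperoxic mice 2, 3, 4 and 6), with adjusted p up to 0.0650. Areg did not pass over both ages, with a log2 fold change of 0.90 and an adjusted p of 0.119, but did without cells with T or B cell genes (1.74, adjusted p = 0.0338) and with no filter on low counts. When cells with a UMI of Mki67 or Top2a were left out, 4 genes were called in place of 71, among 357 that could be tested.

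The change with hyperoxia at P14 was then tested against the change at P7, and 5 of 748 genes passed (0.668%). The effect at P14 was higher than at P7 by 2.61 ± 0.50 on the log2 scale for Areg (adjusted p = 0.0153), by 3.58 ± 0.71 for Cxcl2 (adjusted p = 0.0153), by 6.23 ± 1.40 for Cxcl1 (adjusted p = 0.0249) and by 1.48 ± 0.33 for Furin (adjusted p = 0.0249). For Emb it was lower, by -1.51 ± 0.32 (adjusted p = 0.0225). Furin had 832, 1212, 1058 and 1066 CPM in normoxia and 765, 824, 897 and 665 CPM in hyperoxia at P7, and Emb 564, 689, 864 and 629 CPM and 556, 1277, 632 and 887 CPM. The calls of Areg and Cxcl2 held without each single mouse. That of Emb was lost without any of 4 mice of P7, normoxic mice 3 and 5 and hyperoxic mice 2 and 6, with adjusted p up to 0.0895. That of Cxcl1 was lost without any of 7 mice, P7 normoxic mouse 3, P7 hyperoxic mice 1, 2, 4 and 6 and P14 hyperoxic mice 1 and 4, with adjusted p up to 0.244, and that of Furin without any of 9, the same mice of P7, P14 normoxic mouse 6 and P14 hyperoxic mice 4, 5 and 6, with adjusted p up to 0.0696. Between 2 and 5 genes passed when a single mouse was left out. The difference did not pass for Il1rl1 (-0.85, adjusted p = 0.425) or Il5 (2.42, adjusted p = 0.383), of which Il5 passed with no filter on low counts.

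With age in normoxia, 26 genes were higher and 17 lower at P14 than at P7 (5.75% of 748, with 3.48% higher and 2.27% lower), where age and pool cannot be told apart. Depth differed as well, with a median of 6077.5 UMIs per normoxic ILC2 at P7 and 2840 at P14. The part of depth was not tested beyond thinning. With no filter on low counts the balance turned, with 6 genes higher and 146 lower. Areg fell by 2.14 ± 0.37 (adjusted p = 0.00109), Cxcl2 by 3.07 ± 0.51 (adjusted p = 0.00109), Cxcl1 by 3.10 ± 0.66 (adjusted p = 0.00468) and Hilpda by 1.47 ± 0.21 (adjusted p = 0.000267) on the log2 scale. Il7r rose by 1.61 ± 0.35 (adjusted p = 0.00484), from 188, 356, 335 and 314 CPM at P7 to 493, 761 and 1479 CPM as the lowest, median and highest value at P14. Ccr2 rose by 1.47 ± 0.29 (adjusted p = 0.00275), and Zfp36l2, a protein that destabilises mRNA and holds lymphocytes in quiescence, by 2.19 ± 0.43 (adjusted p = 0.00275). Ddx17, Ahnak and Gadd45b had log2 fold changes of 1.74, 1.56 and -1.08, and their calls held without each single mouse, where Ddx17 passed the filter on counts in 16 of 20 fits. Those of Rel (-1.52), Klf6 (1.32), Dut (-1.94), Selenoh (-1.56), Pde7a (1.74) and Ttc14 (1.60) were lost without any of 1, 5, 4, 2, 4 and 2 single mice, with adjusted p up to 0.133.

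Of all 748 genes tested, 49.6% lay above 0. Among the 12 tested effector genes, 2 fell and none rose, and 9 lay below 0, with a median of -0.70 against -0.0030 for all genes tested. The 9 tested transcription factors lay above 0, with a median of 0.41, and 1 was called, Ets1 at 1.06, against 5.75% of all genes called. Both lists were chosen with earlier results of these data known, so these counts and medians are a description only. Gata3 and Il1rl1 did not pass, with log2 fold changes of 0.66 (adjusted p = 0.104) and 0.83 (adjusted p = 0.0620), nor did Il13 with -1.55 (adjusted p = 0.159). Each of the 3 passed under some alternative, Gata3 without P14 normoxic mouse 3 (adjusted p = 0.0177), Il1rl1 with DESeq2 (adjusted p = 0.0449) and without P7 normoxic mouse 1 (adjusted p = 0.0453) or P14 normoxic mouse 2 (adjusted p = 0.0397), and Il13 with no filter on low counts. Hypoxia and glycolysis genes held 2 decreases among 7, Hilpda and Pgk1 (-1.80), of which Pgk1 lost its call without P7 normoxic mouse 3 or P14 normoxic mouse 2 (adjusted p = 0.0515 and 0.0516). Scgb1a1, a gene of secretory epithelium and background in these cells, rose by 1.19 (adjusted p = 0.0144), and this call was lost without P7 normoxic mouse 4 or 5 (adjusted p = 0.0623 and 0.0831).

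In hyperoxia, 6 genes were higher and 4 lower at P14 than at P7 (1.34%, with 0.802% higher and 0.535% lower), and with the pool as a block 32 passed. When a single mouse was left out, between 3 and 17 genes passed, with 3 and 4 without P7 hyperoxic mice 1 and 2, 6 and 4 without P14 hyperoxic mice 5 and 6, 16 without P14 normoxic mouse 3 or hyperoxic mouse 1 and 17 without hyperoxic mouse 4. Lif rose by 1.77 ± 0.36 (adjusted p = 0.0141), and Ahnak, a large scaffold protein, by 1.52 (adjusted p = 0.00381). Hs3st1, a heparan sulfate sulfotransferase, fell by 1.94 ± 0.33 (adjusted p = 0.00290) on the log2 scale. The other calls, S100a4 (1.13), Dusp1 (1.11), H2-Q7 (0.98), mt-Co3 (0.46), Ubb (-0.73), Eif1 (-0.54) and Rpl15 (-0.53), were lost without any of 4, 11, 13, 7, 2, 4 and 4 single mice, with adjusted p up to 0.142. The Lif call was lost without hyperoxic P7 mouse 1 (adjusted p = 0.0538) or 2 (adjusted p = 0.0596).

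The effect of hyperoxia over P7 and P14 together was then compared between ILC2 and other lymphocytes. These were Treg cells, which share Gata3, Il1rl1 and Areg with ILC2, and NK cells, the other innate lymphocytes. Whether the effects at P14 alone were particular to ILC2 was not tested. The effect of hyperoxia over P7 and P14 differed between ILC2 and Treg cells for 13 of 2247 genes (0.579%). Ccr2 moved down relative to Treg cells by 1.41 ± 0.31 on the log2 scale and Birc5 up by 2.78 ± 0.61 (adjusted p = 0.0269 for both). Smc4, a condensin subunit of mitosis, was also higher by 1.49 ± 0.31, the chemokine receptor gene Cxcr4 by 2.18 ± 0.47 and the costimulatory receptor gene Cd28 by 2.77 ± 0.67, and the ribosomal protein genes Rps3a1, Rpl35a, Rps24 and Rpl27a were lower by -0.50 to -0.42. Cxcr4, Cd28, Arl5c and Hmgn2 did not pass the filter on counts in the fit of ILC2 alone. Nothing about ILC2 by themselves is read from them. In Treg cells at P14, Cxcr4, Cd28 and Smc4 had log2 fold changes of -0.81, -0.28 and -0.47. None of these passed (adjusted p from 0.142 to 0.482, edgeR). With the pool as a block in place of the mouse, 5 genes passed, Ccr2, Smc4, Cxcr4, Cd28 and Rps3a1, and the calls of Birc5 (adjusted p = 0.0948), Rpl35a, Rps24, Rpl27a, Arl5c and Hmgn2 (adjusted p up to 0.0999) were lost.

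Against NK cells 1 of 1542 genes passed (0.0649%), the histone gene Hist1h2ae with a difference of 4.12 ± 0.79 (adjusted p = 0.0429), which shares sequence with other histone genes. With the pool as a block in place of the mouse 0 genes passed, DESeq2 called 34, and 153 genes had an unadjusted p below 0.05. At P14 alone, Mki67 had log2 fold changes of 3.10 in ILC2, 1.17 in Treg cells (adjusted p = 0.0402) and 3.14 in NK cells (adjusted p = 0.271), and Top2a of 4.41, 1.74 and 2.24. Bax had 1.35, 0.55 and 0.28, Emb -1.25, -0.54 and -0.24 and Ccr2 -1.32, 0.53 and -0.25. Other genes changed by a similar size in Treg cells. Txn1 had 0.77, 0.76 and 0.23, Vim 0.78, 0.83 and -0.38, Ets1 -0.86, -0.65 and -0.40 and Cnot6l -1.26, -1.07 and -0.34. These 4 genes passed in Treg cells (adjusted p up to 0.0315, edgeR). Further genes of the cell cycle also rose and passed in Treg cells at P14 (adjusted p up to 0.0302, edgeR). Beside Top2a at 1.74, they were Birc5 at 1.41, Stmn1 at 1.17, Ube2c at 2.30, Hmgb2 at 0.95 and Tubb5 at 0.94. Pclaf at 1.04 (adjusted p = 0.0821) and Tuba1b at 1.22 (adjusted p = 0.0719) did not pass there. At P14, 126 of 1630 genes were called in Treg cells and 0 of 1041 in NK cells. The difference over both ages did not pass for Mki67 (1.47 against Treg cells, adjusted p = 0.149, and 0.53 against NK cells, adjusted p = 0.835), Top2a (2.06, adjusted p = 0.114, and 1.66, adjusted p = 0.321) or Bax (0.74, adjusted p = 0.219, and 0.67, adjusted p = 0.389), nor for Il1rl1 against Treg cells (-0.64, adjusted p = 0.644). As a description, mean levels of Areg, Lif and Furin at P14 were also higher in hyperoxia in Treg and NK cells. Areg went from 40.9 to 146 CPM in Treg cells and from 4.96 to 196 CPM in NK cells. Over both ages, the difference of Areg between ILC2 and NK cells did not pass as fitted. With no filter on low counts it did, at -3.62 (ILC2 minus NK, adjusted p = 2.08e-05, edgeR). Lif went from 2.52 to 79.2 and from 0 to 96.7 CPM, and Furin from 39.1 to 127 and from 93.2 to 105 CPM.

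At P3, the summed cells of a group gave a description only. Areg was at 1426 CPM in the 14 normoxic and 1459 CPM in the 11 hyperoxic cells, Gata3 at 639 and 618 CPM and Cxcl2 at 3194 and 3315 CPM. Il1rl1 was at 535 and 124 CPM, Il13 at 772 and 371 CPM, Csf2 at 1114 and 297 CPM and Il5 at 223 and 519 CPM. With so few cells these values have no test.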

How the data were processed

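Lungs of 36 mice were profiled in 6 libraries. The authors deposited UMI counts per gene and cell, which are not normalized and were made with Cell Ranger 3.0.2 on mm10, sample barcode calls by deMULTIplex, and filters of at least 200 genes and at most 20% mitochondrial reads. They also deposited, for each cell, the percent of mitochondrial reads, age, oxygen level, sample barcode and cell type, and counts of sample barcodes per cell. Cell types were taken as given, and no filter or doublet caller was added. All 222 ILC2 were found in the counts of sample barcodes. The assigned barcode was the highest in 205 of them and held a median of 60.3% of the barcode UMIs, with a lowest value of 13.8%. Cell barcodes of 5 ILC2 (792 of all cells) also occurred in another library, none as ILC2 in both.

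UMI counts were summed over the ILC2 of each mouse with at least 5 ILC2 and fitted with edgeR 4.0.16 (quasi-likelihood test after TMM and filterByExpr, R 4.3.3), and Benjamini-Hochberg adjustment covered all genes tested. Calls needed an adjusted p under 0.05 and detection in 10% or more of the cells of 1 group. The F statistic gave the standard errors. Contrasts of age and oxygen were taken from a fit of 4 group means, and the model over both ages had age as a covariate. Contrasts with Treg and NK cells were interactions over mice with at least 5 cells of both types. For percentages of cells, exact permutation tests over mice (two-sided) were used. Mice within a group were separate animals, and p-values measure the spread between them. Tables and thinning to 1000 UMIs used Python 3.11.15, pandas 2.3.3, scipy 1.17.1 and numpy 2.4.6. Tested on simulated data for the comparison over both ages (637 genes), the fit recovered 92% of genes with a log2 fold change of 1 and 100% of those with 2, and 2.54% of its calls were unchanged genes. The simulation changed 100 genes of each size, where 71 genes were called in the data. Its percentages need not hold for genes with large standard errors, such as Il5.

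Mice of a pool were sequenced together, so the pool was tried as a replicate block. The pool of P3 and P7 had 2 libraries of the same mice, whose counts were summed per mouse, and each other pool had 1. Deviations from group means correlated within pools with r = 0.226 at P7 and 0.165 at P14 over 748 genes. The text names 18 genes of ILC2 identity, every called gene of the lists, the 6 largest increases and decreases of each contrast (average log2 CPM of 6 or more), which include Emb, Stab2, Pclaf and Tuba1b, and the 20 genes with the highest ratio to the next type. One such gene, from the contrast with Treg cells, is left out. The members and the lists were chosen with earlier results of these data known. Positions of genes were read from GENCODE vM21 (GRCm38). Ribosomal protein, histone and tubulin genes have near-identical copies and their counts are uncertain. Alternatives were DESeq2 1.42.0, other filters on counts and cells, thinning, the block and leaving out each mouse in turn.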

Additional observations from a re-analysis of the deposited data

Results flagged for a closer look

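A mouse lay far from the others of its group for 11 of 203 groups of 4 or 6 mice tested, over 48 genes, the percentage of ILC2 and the depth, where chance gives about 1 in 20. The mouse far above the others had 3610.3 CPM of Areg in hyperoxia at P7, 467 CPM of Il2ra, 618 CPM of Mki67 and 4644 CPM of Hilpda in normoxia at P7, 2754 CPM of Vim and 739 CPM of Top2a in hyperoxia at P14, and 241 CPM of Klrg1, 37.9 CPM of Birc5 and 57.1 CPM of Pclaf in normoxia at P14. The mouse far from the others had 189.6 CPM of Cxcr6 in normoxia at P14 and 8.81 CPM of Il18r1 in normoxia at P7.

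Between P14 and P7 the change with hyperoxia differed by 2.61 for Areg, 3.58 for Cxcl2, 1.48 for Furin, -1.51 for Emb and 6.23 for Cxcl1 (log2 scale, P14 minus P7).

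It differed between ILC2 and Treg cells (log2 scale, ILC2 minus Treg) by 2.18 for Cxcr4, -1.41 for Ccr2, 2.78 for Birc5, 2.77 for Cd28, 1.87 for Arl5c, 1.74 for Hmgn2 and 1.49 for Smc4. Of these, Cxcr4, Cd28, Arl5c and Hmgn2 did not pass the filter on counts in ILC2 alone. For the ribosomal protein genes Rps3a1, Rpl35a, Rps24 and Rpl27a the differences were -0.50, -0.47, -0.46 and -0.42. Between ILC2 and NK cells it differed by 4.12 for Hist1h2ae.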

How the results depend on the processing

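No called gene chosen by the naming rule changed direction under any alternative. Over P7 and P14 and at P14 such genes kept their call in 598 of 678 and 893 of 1050 values, with age in normoxia and hyperoxia in 484 of 533 and 208 of 286, for the difference between ages in 112 of 145 and for that from Treg cells in 27 of 37. Named genes that were not called passed in 2, 2, 7, 1, 2 and 2 values of these comparisons, in 11 at P7 and in 7 against NK cells, in part with no filter on low counts. The number of genes called over both ages, 71, was 133 with no filter on low counts (123 higher, 10 lower), 45 with mice of at least 8 ILC2, 47 with 5 cells per mouse, 41 after thinning, 44 without cells with T or B cell genes and, chosen after seeing the data, 4 without cells with Mki67 or Top2a. At P14, 96 became 56, 39 and 49 with at least 8 ILC2, 5 cells and thinning, 24 without cells with Mki67 or Top2a, and 62 to 100 without single mice. At P7, 1 became 0 with DESeq2, 27 with no filter, 2 with at least 8 ILC2, 9 with a minimum count of 3 (chosen after seeing the data) and 1 to 4 without single mice. The 5 genes that differed between ages became 20 with no filter, 1 with at least 8 ILC2, 2 with 5 cells, 2 after thinning and 2 to 5 without single mice. With age in normoxia, 43 became 152 with no filter (6 higher, 146 lower), 11 with 5 cells, 27 after thinning and 79 with a minimum count of 3. In hyperoxia, 10 became 27 with DESeq2, 16 with no filter, 32 with the pool as a block, 1 with at least 8 ILC2, 4 with 5 cells and 3 to 17 without single mice. Against Treg cells 13 became 37 with no filter, 29 with DESeq2 and 5 with the pool as a block, and against NK cells 1 became 8, 34 and 0. Fewer genes or cells entered under the filters, drawing and thinning, and the other causes were not tested. With the pool as a replicate block, 95 genes were called over both ages, 103 at P14, 1 at P7, 5 for the difference between ages and 63 with age in normoxia. The difference of ILC2 at P7 was -0.683 points of lymphoid cells, -0.00328 of lymphoid and myeloid cells and -2.81 of lymphoid cells other than B and CD4+ T cells, and that of P14 from P3 in normoxia was -0.799 of lymphoid cells and -0.437 of those other than B and CD4+ T cells. Few cells per mouse limit the counts: a gene without a UMI in the normoxic mice of P14 can reach 18.2 CPM.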
